A study of Mus musculus with 8 samples.

Results

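Isl1/Htr3a cells were a set of tumour cells in mouse allografts of small cell lung cancer, chosen by 3 transcripts: Htr3a, Isl1 and Igfbpl1. They numbered 4460 of 34719 tumour cells (12.8%) and of 38460 deposited cells (11.6%). A cell counted as a tumour cell when it had at least 500 detected genes, at most 10% mitochondrial unique molecular identifiers (UMIs) and at least 0.2% of its UMIs from eGFP, the green fluorescent protein reporter, and Mycl together. A member was a tumour cell with 0 Tfap2a UMIs, fewer than 2 UMIs over En1, Des, Hoxd9, Hoxd10 and Hoxd11, and at least 3 UMIs over Htr3a, Isl1 and Igfbpl1. Because measured counts chose the members, every level set against other tumour cells of the same sample is a description and carries no test. Only whether such a difference depended on the site was tested, and there too the rule chose which cells were compared.

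All 8 samples were allografts of 1 line, N2N1G, a mouse small cell lung cancer line kept in culture before transplantation, and all were taken 3 weeks after it. The line had been injected directly into the brain (2 samples) or under the skin (3 samples). For the liver (3 samples) it had been given through the tail vein, so site and route cannot be told apart there. The labels gave no host strain or age and no treatment, and no normal tissue or cultured cells were among the samples. Healthy single cells were isolated by flow cytometry, and their transcripts were counted by a droplet method that reads the 3' end. By its title the series concerns mimicry of neurons by this cancer and its expansion in brain tissue.

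Htr3a encodes a subunit of the serotonin-gated ion channel, the only serotonin receptor that is itself a channel, and it is known in autonomic and sensory neurons and in subsets of cortical interneurons. Isl1 is a LIM homeodomain transcription factor of motor neurons, sensory and sympathetic neurons and of endocrine cells of the pancreas, and Igfbpl1 encodes a secreted protein related to the binding proteins of insulin-like growth factors that is found in young neurons. Elavl4 encodes HuD, an RNA-binding protein of neurons, and Chgb encodes a granin of dense-core secretory granules. Small cell lung cancer is a neuroendocrine tumour, in which secretory granule genes and neuronal genes are widely expressed together with epithelial keratins.

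The genes that chose or marked the cells lie apart in the genome (build GRCm38): Htr3a on chromosome 9 (48899213 to 48911099, minus strand), Isl1 on chromosome 13 (116298281 to 116309689, minus strand), Igfbpl1 on chromosome 4 (45809468 to 45826923, minus strand), Elavl4 on chromosome 4 (110203722 to 110351909, minus strand) and Chgb on chromosome 2 (132781278 to 132795079, plus strand). RefSeq promoter windows (GRCm38.p6, 250 bases before to 50 bases after a gene's start) matched 3 of these 5 genes. The windows of Isl1 and Chgb are shown because one is the transcription factor of the rule and the other a granule gene whose level was higher in cells with more UMIs of the rule. Capitals mark the E-box CAGCTG, bound by basic helix-loop-helix factors, and the cyclic AMP response element TGACGTCA. Both strings read the same on either strand and do not overlap.
Isl1 promoter, chr13:116309639-116309938, minus strand: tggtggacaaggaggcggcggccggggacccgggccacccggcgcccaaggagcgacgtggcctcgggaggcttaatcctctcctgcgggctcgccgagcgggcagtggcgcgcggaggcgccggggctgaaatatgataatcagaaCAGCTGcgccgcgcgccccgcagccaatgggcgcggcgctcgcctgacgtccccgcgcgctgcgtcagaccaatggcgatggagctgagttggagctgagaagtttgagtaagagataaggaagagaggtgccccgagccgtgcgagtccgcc
Chgb promoter, chr2:132781392-132781691, plus strand: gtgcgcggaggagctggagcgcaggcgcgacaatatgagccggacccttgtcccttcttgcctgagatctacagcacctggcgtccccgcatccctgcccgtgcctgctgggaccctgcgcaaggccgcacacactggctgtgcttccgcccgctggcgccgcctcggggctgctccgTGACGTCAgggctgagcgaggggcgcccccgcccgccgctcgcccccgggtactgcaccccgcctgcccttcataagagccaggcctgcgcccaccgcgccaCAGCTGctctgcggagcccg
The Isl1 window held 1 E-box, 103 bases before the start, and 0 cyclic AMP elements. The Chgb window held 1 cyclic AMP element, 72 bases before the start, and 1 E-box after the start. Of 32851 RefSeq windows of 300 bases, 16.3% held the E-box and 1.79% the cyclic AMP element, so the E-box is common in such windows. A match describes letters and not binding.

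Samples held 3742 to 6707 deposited cells and 27140735 to 63049542 UMIs, and the summed UMIs of the members were 3864832 to 14065189 per sample. Any pair of libraries shared 20 to 56 cell barcodes, and over the 28 pairs members shared 8 in all, at most 3 in a pair. Subcutaneous sample 1 stood apart: 38.8% of its tumour cells held a Tfap2a UMI against 7.95% to 21.6% elsewhere, and on the first principal component of the members' levels (42.7% of the variance) it lay at -15.2, between the brain samples (-53.1 and -32.6) and the other 5 (18.1 to 24.0). Tumour cells without Tfap2a but over the limit on En1, Des and Hoxd made up 25.02% and 29.5% of all tumour cells in brain, against 1.19% to 8.72% elsewhere. The rule therefore took more cells out of the brain samples and subcutaneous sample 1 than out of the rest, and each comparison with other tumour cells is also given against the 22219 other tumour cells that passed the same limits on Tfap2a, En1, Des and Hoxd, called limit-matched tumour cells here.

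Htr3a carried the rule. An Htr3a UMI was present in 99.2% of members (98.1% to 99.8% by sample), and 86.1% would have reached 3 UMIs by Htr3a alone. An Isl1 UMI was present in 28.03% of members (17.9% to 34.2%) and an Igfbpl1 UMI in 12.1% (2.14% to 21.2%). Members with Htr3a but neither of the other transcripts made up 65.2%, and only 5.11% held all 3. By cell the rule was thus mostly a threshold on Htr3a, most members had no Isl1 UMI, and the cells are called Isl1/Htr3a cells after the genes of the rule.

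Htr3a, the channel subunit, stood in members at 401 and 350.2 CPM in the brain samples, 245, 218 and 279 in the liver samples and 367, 383 and 335 in the subcutaneous samples, where CPM is the usual depth-scaled UMI count of a gene, scaled here by the UMIs summed over the class in a sample. Other tumour cells had 49.999 to 78.1 CPM. Isl1, the LIM homeodomain factor, stood in members at 40.1 and 50.6 CPM in the brain samples, 15.8, 16.3 and 23.2 in the liver samples and 30.3, 47.6 and 39.7 in the subcutaneous samples and at 4.83 to 9.67 CPM in other tumour cells. Igfbpl1 showed the widest spread by site, with 35.03 and 35.5 CPM in the brain samples, 4.75, 1.71 and 5.78 in the liver samples and 19.4, 19.98 and 17.5 in the subcutaneous samples. Both brain samples were highest for Igfbpl1 and all 3 liver samples lowest, and the 3 sites did not overlap. These are values of the genes that made the rule and are given without a test.

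Other tumour cells were not free of these transcripts: 36.9% to 47.2% held an Htr3a UMI, 4.39% to 7.74% an Isl1 UMI and 0.492% to 3.18% an Igfbpl1 UMI. Macrophage cells, which should lack Htr3a, held an Htr3a UMI in 2.84% of 845 cells in brain sample 1 (median depth 4272 UMIs) and in 3.42% of 263 cells in brain sample 2 (median 3965 UMIs). Members were deeper than other tumour cells in each sample, with median depths of 10303 to 14232 UMIs against 7529 to 10278.5, and depth raises the chance of reaching 3 UMIs. Thinned to 5000 UMIs per cell, an Htr3a UMI remained in 69.7% to 85.4% of members and in 22.4% to 29.7% of other tumour cells, and an Isl1 UMI in 5.26% to 19.2% against 2.40% to 4.29%. Of each sample's tumour cells that the rule picked after thinning, 86.6% to 97.8% had also been picked before.

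Isl1/Htr3a cells occurred in every sample. In brain their share of tumour cells was 14.6% (13.2% to 16.1%, exact Clopper-Pearson 95% interval) and 11.7% (10.7% to 12.7%). It was 11.96% (10.98% to 12.99%), 7.81% (7.01% to 8.66%) and 10.8% (9.91% to 11.7%) in liver and 7.90% (7.10% to 8.77%), 19.2% (18.2% to 20.1%) and 16.2% (15.2% to 17.3%) in subcutaneous tumours. Intervals cover counting error only, and the subcutaneous samples alone spanned both the second lowest and the highest share. Site means were 13.1% ± 2.08 (SD, n = 2), 10.2% ± 2.14 (n = 3) and 14.4% ± 5.83 (n = 3). The sites did not differ beyond this spread (F statistic over 3 sites, exact permutation over 560 assignments, p = 0.47), and no pair of sites did (two-sided exact permutation p = 0.3 for brain against liver, 0.8 for brain against subcutaneous and 0.3 for liver against subcutaneous, where 0.1 is the smallest possible). Without subcutaneous sample 1 the same exact permutation test gave p = 0.038, with subcutaneous above liver by 7.49 percentage points.

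The result differed with the denominator. Of tumour cells that passed the limits, Isl1/Htr3a cells made up 24.2% and 23.9% in brain, 14.3%, 8.99% and 12.3% in liver, and 15.1%, 21.3% and 18.4% in subcutaneous tumours. These values did not overlap between sites, with brain highest and liver lowest (exact permutation F test, p = 0.014). Applying the rule to cells thinned to 5000 UMIs gave an exact permutation p = 0.093 for the share of all tumour cells. The samples of a site are labelled as separate replicates, but no label says whether they came from separate animals, so p-values measure the spread between these samples.

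**Figure D1:**
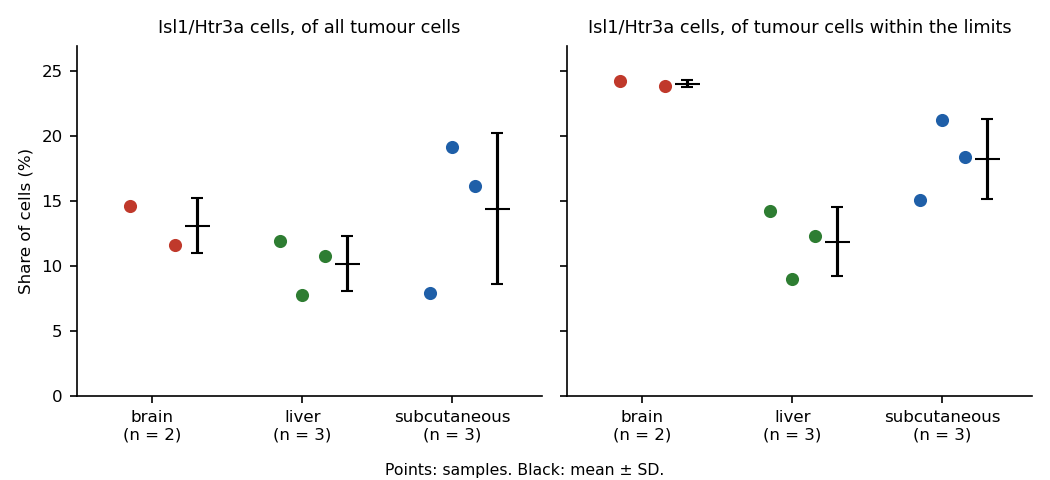
Share of Isl1/Htr3a cells (%, y axis) by site (x axis), of all tumour cells (left) and of tumour cells within the limits on Tfap2a, En1, Des and Hoxd (right). Points are samples and black bars the mean ± SD; on the left the sites overlap, on the right both brain samples lie above 23% and the liver samples below 15%.

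Mean levels of the neuronal gene Elavl4 and the granule gene Chgb were higher at each step in the number of rule UMIs, on both sides of the threshold. Among tumour cells within the limits, 3638 cells held 2 rule UMIs, just outside, and 1820 held 3, just inside, 40.8% of all members. Elavl4 (HuD) averaged 85.4 ± 26.5 CPM (SD over 8 samples) in cells with 0 rule UMIs, 105 ± 40.9 with 2, 118 ± 43.0 with 3 and 304 ± 101 with 8 or more. Chgb averaged 39.9 ± 8.35, 48.6 ± 11.2, 49.6 ± 15.5 and 248 ± 99.6 CPM in the same bins. Just inside and just outside the threshold the mean levels of these 2 genes lay close together. The SD spans all 3 sites, and the difference between these bins within each sample was not tested. The 519 cells with 8 or more rule UMIs (11.6% of members) carried the highest mean levels. Nnat, an imprinted gene of neuroendocrine tissue, went from 614 to 2044 CPM and Zeb2, a zinc finger factor of neural crest and neurons, from 10.99 to 44.6 CPM between the lowest and highest bin. Krt8, a simple epithelial keratin, went from 377 to 175 CPM, Krt18, its partner, from 159 to 89.9 CPM, and Id2, an inhibitor of basic helix-loop-helix factors, from 408 to 209 CPM. Median depth of the bins rose too, from 5178 to 9463 UMIs by sample in cells with 0 rule UMIs to 10297 to 21915 in those with 8 or more, and its part in the trend was not tested.

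**Figure D2:**
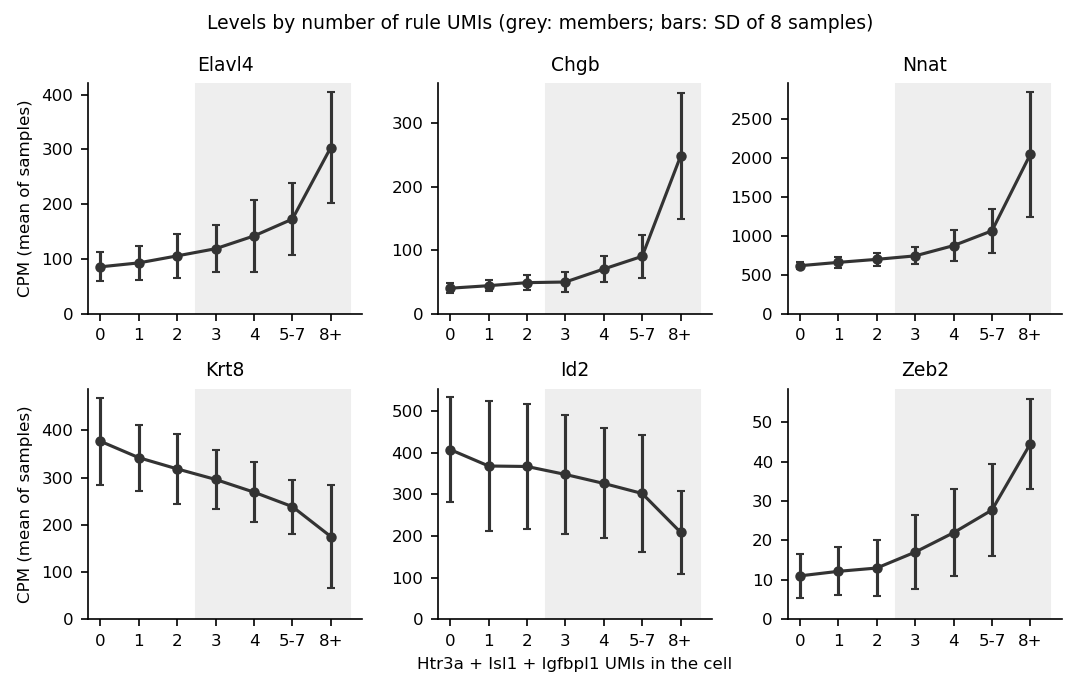
Mean level over samples (CPM, y axis, from 0) of 6 genes in tumour cells within the limits, by the number of Htr3a, Isl1 and Igfbpl1 UMIs in the cell (x axis); bars are the SD of 8 samples and the grey area marks members. Elavl4, Chgb, Nnat and Zeb2 are highest at 8 or more UMIs, where Krt8 and Id2 are lowest.

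Members differed among themselves by which transcript they held. The 539 members with an Igfbpl1 UMI stood furthest from the 2908 with Htr3a only, a split made after the values were seen and described over the 5 brain and subcutaneous samples, because liver held as few as 7 such cells in a sample. Chgb averaged 311 ± 108 CPM (SD, n = 5) in members with Igfbpl1 and 70.3 ± 12.9 in members with Htr3a only. Elavl4 averaged 350 ± 20.4 against 155 ± 45.4 CPM, and Pcsk2, a prohormone convertase of dense-core granules, 126 ± 12.8 against 44.0 ± 6.86 CPM. Zeb2 averaged 56.0 ± 5.62 against 24.2 ± 7.02 CPM, and all 4 genes were higher with Igfbpl1 in each of the 5 samples. The 1013 members with Isl1 and no Igfbpl1 lay closer to those with Htr3a only. In them, over the same 5 samples, Elavl4 averaged 218 ± 40.7 CPM, Chgb 87.04 ± 19.9 CPM and Pcsk2 58.5 ± 9.39 CPM. Sox4, an SRY-related factor of immature neurons, averaged 617 ± 43.0 CPM in them against 499 ± 39.1 with Htr3a only, and Krt8 206 ± 70.8 against 257 ± 62.8 CPM. Igfbpl1 marked 21.2% and 21.1% of members in brain, 4.07%, 2.14% and 5.70% in liver and 13.4%, 13.6% and 12.9% in subcutaneous tumours, so this subset was most common in brain and scarcest in liver, without overlap of the sites. Liver was also lowest in other tumour cells. There Igfbpl1 marked 1.94% and 3.18% in brain, 0.663%, 0.492% and 0.926% in liver and 2.41%, 1.68% and 1.57% in subcutaneous tumours.

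Against other tumour cells of the same sample, outside the 11 rule genes, 5 genes averaged at least 2-fold higher in members with the same sign in all 8 samples (0.0279% of 17914 genes measured) and 61 at least 2-fold lower (0.341%). Against limit-matched tumour cells the counts were 12 higher (0.067%) and 1 lower (0.00558%), so most of the lower genes were not 2-fold lower against cells that passed the same limits. Of genes at 50 CPM or more in the class where they were higher, the 15 with the largest ratios in members included Stmn2, Chgb, Syt1, Cadps2 and Dpysl3. The 15 with the lowest ratios included Rlf, Rragc, Cited4, Nfyc, Ctps, Ndufs5, Foxj3, Akirin1 and Slc2a1, all on chromosome 4, and Calca, Wfdc2 and Nupr1.

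Secretory and synaptic genes led the higher genes. Chgb stood in members at 112 and 104 CPM in the brain samples, 45.4, 42.9 and 79.1 in the liver samples and 81.5, 144 and 118 in the subcutaneous samples, against 31.5 to 56.4 CPM in other tumour cells, a mean log2 ratio of 0.90 ± 0.38 (SD over 8 samples) and 0.99 ± 0.38 against limit-matched cells. Members held more Chgb in each sample, and the lowest values on both sides came from liver. Stmn2, a microtubule regulator of growing axons, stood in members at 192 and 236 CPM in the brain samples, 181, 159 and 201 in the liver samples and 133, 217 and 205 in the subcutaneous samples; its log2 ratio was 0.91 ± 0.58 against all other tumour cells and 0.49 ± 0.29 against limit-matched cells. Syt1, the calcium sensor of vesicle release, stood at 84.9 and 70.3 CPM in the brain samples, 58.6, 52.96 and 65.8 in the liver samples and 58.2, 54.96 and 54.1 in the subcutaneous samples, with log2 ratios of 0.57 ± 0.16 and 0.49 ± 0.10. Its ratio changed little with the comparator. Elavl4 stood in members at 248 and 232 CPM in the brain samples, 91.4, 78.2 and 116 in the liver samples and 217, 167 and 145 in the subcutaneous samples, a log2 ratio of 0.46 ± 0.27 against all and 0.76 ± 0.31 against limit-matched cells. Cadps2, a priming factor of dense-core vesicles, averaged 84.01 CPM in members, 55.7 in other tumour cells and 63.6 in limit-matched cells. Gamt, an enzyme of creatine synthesis, averaged 58.2, 37.1 and 39.7 CPM.

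Neuronal gene lists differed in how many members were higher. Of 18 neuron structure genes, 17 reached 10 CPM in either class, and 10 of them (Map2, Mapt, Elavl2, Elavl3, Elavl4, Stmn2, Dcx, Gap43, Syt1 and Syn1) were higher in members in all 8 samples and 1 (Nefl) lower, where 9.42% and 8.73% of all genes at that level were. Their median log2 ratio was 0.25 against -0.0047 over all genes. Against limit-matched cells 10 were higher and 0 lower (12.9% and 5.93% of all genes), with a median of 0.17 against 0.02. Members were not the highest class for all of these genes. Tumour cells with a Tfap2a UMI held more Gap43 (65.3 to 268 CPM by sample) and Elavl4 (111 to 286 CPM) than members in each sample. Tumour cells over the limit on En1, Des and Hoxd held more Mapt in each sample (81.5 to 146 CPM). Stmn2 and Syt1 were higher in members than in either class in each sample. Of 22 axon growth genes at 10 CPM, 12 were higher and 0 lower, among them Dpysl3, Dpysl5, Crmp1, Map1b, Basp1 and Kif1a. Of 17 neuroendocrine granule genes 5 were higher (Chga, Chgb, Pcsk2, Vgf and Cadps) and 2 lower (Pcsk1 and Calca), of 17 synaptic vesicle genes 6 were higher and 2 lower (median 0.03), and of 11 voltage-gated channel genes 2 were higher and 1 lower (median -0.06). These lists were drawn up with earlier results of these data known, and the rule used this contrast, so nothing is read from the counts beyond the description.

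Lineage factors split only against all other tumour cells. Of 23 at 10 CPM, 7 were higher in members in all 8 samples (Insm1, Lhx2, Onecut2, Sox11, Fev, Nfib and Ldb1, the LIM cofactor that Isl1 binds). Lower were 5, Nkx2-2, Foxa2 and Lmo1 among them, where 9.42% of all genes were higher and 8.73% lower. Against limit-matched cells 21 reached 10 CPM, with 10 higher and 1 lower (12.9% and 5.93% of all genes). Of 12 epithelial genes 0 were higher and 6 lower (Cldn7, Krt8, Krt18, Krt7, Cldn3 and Elf3). Against limit-matched cells 0 were higher and 8 lower, beside the same shares of all genes. Krt8 stood in members at 172 and 177 CPM in the brain samples, 272, 311 and 353 in the liver samples and 203, 270.3 and 304 in the subcutaneous samples, a log2 ratio of -0.45 ± 0.19. Apart from Htr3a, only 3 of 23 genes of serotonin and monoamine signalling reached 10 CPM, and 0 of them were higher or lower in all 8 samples. Of 7 other ligand-gated channel genes 2 were higher, Grin1 and Grin3a, both subunits of glutamate receptors. Lower were 0, beside 9.42% higher and 8.73% lower over all genes.

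**Figure D3:**
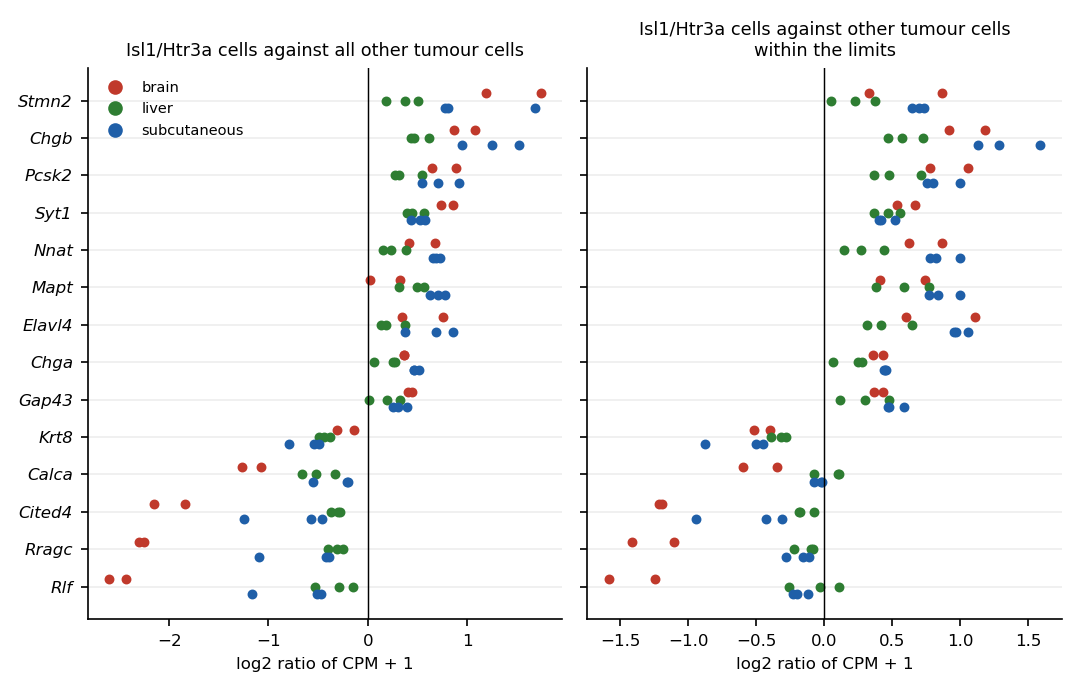
Log2 ratio of CPM + 1 in Isl1/Htr3a cells to all other tumour cells (left) and to limit-matched tumour cells (right) of the same sample (x axes, which differ in range) for 14 genes (y axis); points are samples, coloured by site. Chgb, Syt1 and Elavl4 lie right of 0 in every sample in both panels, and Rragc and Rlf lie furthest left in the 2 brain samples.

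Markers of host cells were checked beside these values. The macrophage and microglia list (11 genes) summed to 515 and 49.8 CPM in brain members, 0.396, 15.8 and 1.16 in liver members and 25.9, 0.711 and 0.905 in subcutaneous members, and 35.7% of the members of brain sample 1 held 3 or more of its UMIs. The host neuron list summed to 29.5 and 22.9 CPM in brain members and to 18.2 to 26.2 CPM in the other samples, and in each of the 8 samples the sum was lower in members than in other tumour cells. The oligodendrocyte list summed to 201 and 129 CPM in brain and 41.3 to 55.1 elsewhere, and the astrocyte list to 77.0 and 54.7 CPM in brain and 16.03 to 36.5 elsewhere. The part of host RNA in the results below was not tested beyond leaving out cells with 3 or more macrophage UMIs. Doublets were not removed: 5.18% to 12.6% of a sample's members were among the 4% of its cells with the most UMIs.

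In brain, many genes in 2 blocks beside Mycl were lower in members than in limit-matched tumour cells. Between 3.87 and 1.82 Mb before Mycl the mean log2 ratios ran from -1.43 (Zmpste24) to -0.06 (Rimkla), and for Ndufs5, Akirin1, Mycbp and Rragc, 0.72 to 0.93 Mb after it, from -1.26 to -0.64. The 8 genes nearest to Mycl, from Ppt1 to Macf1, lay between -0.18 and 0.14, and those 1.69 to 4.25 Mb after it between -0.42 (Inpp5b) and 0.59 (Tekt2). Rragc, a GTPase of nutrient sensing that lies on chromosome 4, stood at 65.7 and 62.1 CPM in brain members against 329 and 299 in other and 142 and 167 in limit-matched brain tumour cells. In liver, members had 57.9, 51.4 and 64.0 CPM and limit-matched cells 61.4, 60.1 and 68.3. Members of all 3 sites thus lay close together, at 51.4 to 80.2 CPM, and the brain comparator cells were high. Ctps, a cytidine triphosphate synthase, had 183 and 213 CPM in brain members and 326 and 442 in limit-matched brain cells. The same held for Ybx1, an RNA and DNA binding protein, with 2917 and 2947 CPM in brain members, 4173 and 4704 in limit-matched and 7233 and 7375 in all other brain tumour cells.

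Whether a member-against-other difference depended on the site was tested gene by gene with edgeR's quasi-likelihood interaction test, with sample as a block and Benjamini-Hochberg adjustment. Against all other tumour cells, 1672 of 13106 genes (12.8%) differed between brain and liver, with a higher ratio in brain for 6.75% and a lower one for 6.01% of the genes tested. Between brain and subcutaneous 1565 (11.9%) differed, 5.64% higher and 6.3% lower in brain, and between liver and subcutaneous 20 (0.153%), 0.0534% higher and 0.0992% lower in liver. Against limit-matched cells, a comparison added after seeing the data, the counts over 12643 genes were 302 (2.39%, 0.949% higher and 1.44% lower in brain), 309 (2.44%, 0.641% higher and 1.8% lower in brain) and 177 (1.4%, 0.807% higher and 0.593% lower in liver). With the limit-matched comparator the 2 brain counts were thus lower and the liver and subcutaneous count higher, and the cause was not tested. By the first comparison the brain and liver count was 688 without brain sample 2 and 1103 without brain sample 1. The brain and subcutaneous count was 617 without brain sample 2, 1013 without subcutaneous sample 2 and 2387 without subcutaneous sample 1. The liver and subcutaneous count was 5 without liver sample 1 or liver sample 2, 10 without subcutaneous sample 3, 31 without brain sample 1 and 108 without subcutaneous sample 1.

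Many of the lower brain calls lay in 2 stretches, windows that were set after the values were seen. Within 5 Mb of Mycl on chromosome 4 (122995652 to 123002485, plus strand), 93 genes were tested against limit-matched cells, and 29 (31.2%) were lower and 0 higher in brain members relative to liver, against 20 lower (2.81%) on the rest of chromosome 4 and 78 (0.7%) on all chromosomes other than 4 and 8. On chromosome 8 between 70 and 87 Mb, 52 of 181 genes (28.7%) were lower and 0 higher, against 3 of 520 (0.577%) on the rest of that chromosome. For brain relative to subcutaneous the same 2 stretches gave 28 and 58 lower and 0 and 0 higher, and for liver relative to subcutaneous 1 and 2 lower and 2 and 1 higher. At 10 CPM or more, the 68 genes near Mycl had a median log2 ratio of members to limit-matched cells of -0.19 and -0.24 in the brain samples, -0.05, -0.02 and 0.00 in liver and -0.04, 0.01 and -0.02 in subcutaneous samples. The 130 genes of the chromosome 8 stretch had medians of -0.15 and -0.31 in brain, -0.02, 0.00 and 0.02 in liver and 0.00, 0.02 and 0.02 in subcutaneous samples. In either stretch the 2 brain samples were the lowest of the 8.

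Single genes followed the same pattern. Ndufs5, a subunit of respiratory complex I on chromosome 4, differed between brain and liver by -0.81 ± 0.05 (SE), adjusted p = 1.1e-19 (log2, edgeR, limit-matched), and Ctps by -0.89 ± 0.06 (SE), adjusted p = 5.1e-18. Junb, an AP-1 factor in the chromosome 8 stretch, stood at 361 and 261 CPM in brain members and 583 and 479 in limit-matched brain cells, with a difference from liver of -0.85 ± 0.06 (SE), adjusted p = 3.3e-19. Rpl22l1, a ribosomal protein paralog on chromosome 3 and so outside both stretches, stood in members at 464 and 453 CPM in the brain samples, 818, 666 and 691 in the liver samples and 589.7, 699 and 702 in the subcutaneous samples. Limit-matched cells had 652 and 736 CPM in brain, and the difference between brain and liver was -0.70 ± 0.05 (SE), adjusted p = 2.8e-16. Mycl itself, part of the tumour gate, stood in members at 5710.4 and 5249.6 CPM in the brain samples, 7873, 7618 and 7378 in the liver samples and 4825, 5993 and 6027 in the subcutaneous samples.

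**Figure D4:**
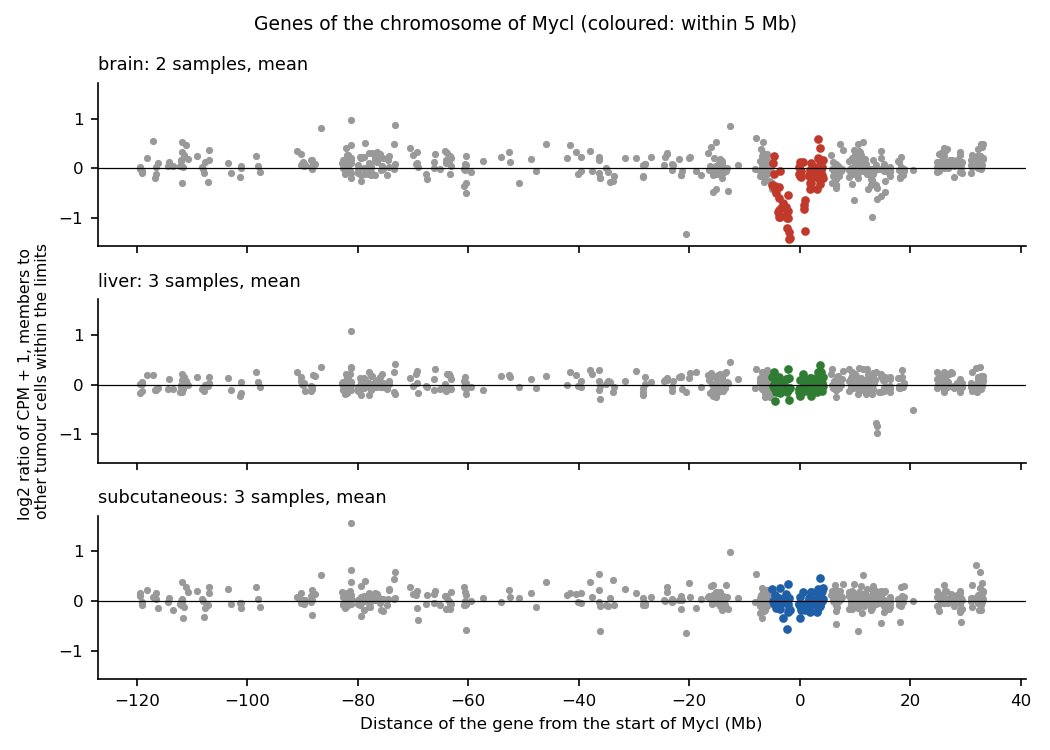
Log2 ratio of CPM + 1 in Isl1/Htr3a cells to limit-matched tumour cells (y axes), averaged over the samples of each site, for genes at 10 CPM or more on chromosome 4, by distance from the start of Mycl (x axis, Mb); coloured points lie within 5 Mb. In brain, Cited4, Smap2, Zmpste24 and Rlf before Mycl and Rragc after it lie below -1; Cited4 is also low in subcutaneous samples (-0.56), the other 4 lie above -0.31 in liver and subcutaneous samples, and the genes nearest to Mycl lie near 0.

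Against limit-matched cells, 5 of 20 granule genes (Pcsk1, Pcsk1n, Resp18, Calca and Ptprn) had a lower ratio in brain than in liver and 0 a higher one. The same 5 were lower and 0 higher in brain against subcutaneous tumours. Of all genes, 1.44% were lower and 0.949% higher in brain against liver, and 1.8% and 0.641% against subcutaneous. Brain tumour cells over the limit on En1, Des and Hoxd held Calca at 267 and 289 CPM and Pcsk1n at 206 and 204 CPM. Limit-matched brain cells held 86.7 and 101 and 75.9 and 79.0 CPM. Their median depth was 6370 and 7984 UMIs, against 10644 and 10303 in members. Whether they held cells of the En1, Des and Hoxd kind with too few UMIs to pass that limit was not tested. Between liver and subcutaneous tumours, 2 of the 20 granule genes had a lower ratio in liver (Chga and Chgb) and 1 a higher one (Grp). Of 18 neuron structure genes 1 (Dcx) had a lower one, where 0.593% of all genes had a lower and 0.807% a higher ratio. The Chgb ratio was higher in subcutaneous tumours: the liver and subcutaneous log2 ratios of members to other tumour cells differed by -0.78 ± 0.10 (SE), adjusted p = 0.0037 (edgeR, all other tumour cells) and by -0.77 ± 0.09 (SE), adjusted p = 2.6e-05 against limit-matched cells. Chgb was 81.5, 144 and 118 CPM in subcutaneous members and 41.7 to 49.7 in their comparators, but 42.9 to 79.1 in liver members against 31.5 to 51.3. Nnat differed by -0.43 ± 0.06 (SE), adjusted p = 0.00078 and Chga, the other main granin, by -0.28 ± 0.05 (SE), adjusted p = 0.013. Sox4 stood in members at 622 and 639 CPM in the brain samples, 399, 355 and 387 in the liver samples and 533, 589.9 and 566 in the subcutaneous samples, where other tumour cells of the liver had 358 to 379 CPM and those of subcutaneous tumours 378 to 435. Its difference was -0.41 ± 0.05 (SE), adjusted p = 3.4e-05. Angptl6, a secreted angiopoietin-like factor, went the other way, with 0.65 ± 0.13 (SE), adjusted p = 0.018. For Sox4 the brain and liver difference was 0.57 ± 0.06 (SE), adjusted p = 6.3e-09, and for Chgb 0.46 ± 0.12 (SE), adjusted p = 0.019.

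Sites were then compared within the Isl1/Htr3a cells alone, over summed counts of the 8 samples, with edgeR's quasi-likelihood test on 11463 genes and the rule genes left out. Brain against liver gave 569 genes at an adjusted p under 0.05 (4.96%), 301 higher in brain (2.63%) and 268 lower (2.34%). Brain against subcutaneous gave 416 (3.63%), 188 higher (1.64%) and 228 lower (1.99%), and liver against subcutaneous 505 (4.41%), 185 higher (1.61%) and 320 lower (2.79%). The brain contrasts share the brain samples: 111 genes were higher and 69 lower in brain in both, and 1 had opposite signs. Single samples moved these counts. Brain against liver fell to 71 without brain sample 1, 317 without brain sample 2, 328 without liver sample 1 and 260 without liver sample 2, and was 934 without liver sample 3. Brain against subcutaneous fell to 72 without brain sample 1, 264 without brain sample 2, 154 without subcutaneous sample 2 and 189 without subcutaneous sample 3, and was 1074 without subcutaneous sample 1. Liver against subcutaneous was 279, 185 and 847 without liver sample 1, 2 and 3, and 786, 164 and 237 without subcutaneous sample 1, 2 and 3. In bulk sums such as these, fewer cells at a high level and a lower level per cell cannot be told apart.

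Several axonal and cytoskeletal genes were higher in brain members than in liver members. Gap43, a growth cone protein of extending axons, stood at 192 and 241 CPM in the brain samples, 58.6, 49.7 and 82.2 in the liver samples and 153, 114 and 108 in the subcutaneous samples. Both brain samples exceeded all others, and liver was lowest, with a log2 fold change for brain against liver of 1.72 ± 0.20 (SE), adjusted p = 0.00049 (edgeR), and for brain against subcutaneous of 0.85 ± 0.20 (SE), adjusted p = 0.032. Tubb2a, a beta tubulin of neurons, stood at 29.3 and 46.9 CPM in the brain samples, 5.41, 3.99 and 9.10 in the liver samples and 29.2, 27.2 and 22.03 in the subcutaneous samples, with all liver samples below the other 5. Brain against liver was 2.56 ± 0.27 (SE), adjusted p = 0.00024 and liver against subcutaneous -1.95 ± 0.25 (SE), adjusted p = 0.00092. Elavl4 followed the same order, with 1.28 ± 0.18 (SE), adjusted p = 0.0012 for brain against liver and 0.49 ± 0.18 (SE), adjusted p = 0.15 for brain against subcutaneous, the last not past the threshold. Mapt, the tau protein, stood at 97.2 and 99.1 CPM in the brain samples, 38.8, 28.5 and 46.9 in the liver samples and 106, 91.2 and 77.9 in the subcutaneous samples, with 1.31 ± 0.18 (SE), adjusted p = 0.0012 for brain against liver. Lingo1, a membrane protein that restrains axon growth, stood at 55.2 and 45.01 CPM in the brain samples, 12.3, 5.88 and 15.6 in the liver samples and 57.2, 38.3 and 29.5 in the subcutaneous samples, with 2.07 ± 0.35 (SE), adjusted p = 0.009. Brain and subcutaneous samples overlapped for Lingo1 and Mapt, and liver lay below both. Limit-matched cells had 149 and 178 CPM of Gap43 in brain, 47.3, 45.9 and 58.7 in liver and 102, 81.6 and 77.9 in subcutaneous samples. Elavl4 and Mapt were also lower in liver than in brain in them. In the test of the members' difference from limit-matched cells, 0 of 18 neuron structure genes passed for brain against liver. Of 32 axon growth genes 3 had a higher and 1 a lower ratio in brain, where 0.949% and 1.44% of all genes had.

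By list, read against 2.63% of all genes higher and 2.34% lower in brain than liver, 18 neuron structure genes were tested: 3 were higher in brain than liver (Mapt, Elavl4 and Gap43), 1 lower (Snap25), with a median log2 fold change of 0.17 against 0.01 over all genes. Against subcutaneous members, Gap43 and Syt1 were higher and 0 lower, where 1.64% and 1.99% of all genes were. Of 31 axon growth genes 4 were higher in brain than liver (Dpysl4, Tubb2a, Tubb2b and Nrp1) and 0 lower. Of 33 lineage factors 7 were higher in brain than liver (Neurog3, Insm2, Lhx1, Lhx3, Foxa2, Sox2 and Sox4) and 2 lower (Gata2 and Fev). Neurog3, a basic helix-loop-helix factor of endocrine progenitors, was called against both other sites, at 11.8 and 13.2 CPM in the brain samples, 3.56, 5.69 and 2.02 in the liver samples and 1.03, 1.42 and 2.41 in the subcutaneous samples. Of 17 Notch genes 3 were higher in brain than liver, all of them Delta ligands (Dll1, Dll3 and Dll4). The members' difference from limit-matched cells was also tested for these 2 lists. For brain against liver, 1 of 41 lineage factors (Sox4) had a higher ratio in brain and 0 a lower one. Of 18 Notch genes 1 (Dner) was higher and 1 (Mfng) lower, where 0.949% and 1.44% of all genes were. For brain against subcutaneous, Neurog3 and Nfib were higher and Sox2 lower among the lineage factors. In liver against subcutaneous members, where 1.61% of all genes were higher and 2.79% lower, the neuron structure list gave 0 higher and 4 lower (Mapt, Elavl4, Gap43 and Ina), and the granule list 0 higher and 2 lower (Chgb and Pcsk2).

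Id2 and Id3, inhibitors of differentiation, and 5 of 12 epithelial genes were lower in brain than in liver members. Id2 stood at 89.98 and 129.8 CPM in the brain samples, 455, 402 and 397 in the liver samples and 265, 384 and 403 in the subcutaneous samples, and Id3, from the same family, at 73.4 and 110.1 CPM in the brain samples, 386, 402 and 319.8 in the liver samples and 196, 318 and 329 in the subcutaneous samples. Both brain samples lay below all 6 others for both genes. Brain was lowest for Id2 in limit-matched cells too. They had 162 and 208 CPM in brain, 520, 439 and 462 in liver and 321, 488 and 499 in subcutaneous samples. Id2 differed by -1.98 ± 0.19 (SE), adjusted p = 0.00013 (log2, edgeR) between brain and liver and by -1.62 ± 0.19 (SE), adjusted p = 0.00033 between brain and subcutaneous. Kcnh3, a voltage-gated potassium channel of neurons, stood at 14.9 and 21.9 CPM in the brain samples, 139, 130.4 and 87.9 in the liver samples and 32.6, 37.5 and 47.8 in the subcutaneous samples, highest in liver, and BC034090, a gene with no settled role, at 4.32 and 5.21 CPM in the brain samples, 46.3, 46.3 and 38.1 in the liver samples and 24.1, 25.5 and 28.7 in the subcutaneous samples. Fbxo2, a ubiquitin ligase subunit that binds glycoproteins, differed by -2.50 ± 0.23 (SE), adjusted p = 0.00013 between brain and liver, and Calb1, a calcium buffer of neurons, by 1.39 ± 0.19 (SE), adjusted p = 0.0012 between liver and subcutaneous. Of 12 epithelial genes tested, 0 were higher and 5 lower in brain than liver (Krt8, Cdh1, Grhl2, Esrp1 and Tfap2c), where 2.34% of all genes were lower, with a median log2 fold change of -0.52. Krt8 was lower in brain in limit-matched cells too, at 226 and 253 CPM against 331, 388 and 464 in liver. In the test of the members' difference from those cells, 1 of 12 (Epcam) was higher and 1 (Elf3) lower. The list's median was -0.02, and 0.949% of all genes were higher and 1.44% lower. Cdkn1a, the p21 cell cycle inhibitor, stood at 168 and 161 CPM in the brain samples, 87.4, 70.04 and 112 in the liver samples and 190.2, 182 and 186 in the subcutaneous samples, and the liver samples lay below the other sites (0.82 ± 0.15 (SE), adjusted p = 0.006 for brain against liver).

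Genes of low oxygen and glycolysis were highest in subcutaneous members. Bnip3, a mitophagy receptor induced in hypoxia, stood at 92.9 and 97.6 CPM in the brain samples, 176, 118 and 158 in the liver samples and 383, 499 and 388 in the subcutaneous samples. The 3 sites did not overlap, and subcutaneous samples lay highest, with -2.11 ± 0.17 (SE), adjusted p = 2.2e-05 for brain against subcutaneous and -1.39 ± 0.14 (SE), adjusted p = 0.00021 for liver against subcutaneous. Egln3, an oxygen-sensing prolyl hydroxylase, stood at 9.84 and 10.8 CPM in the brain samples, 30.2, 31.5 and 24.7 in the liver samples and 61.8, 83.9 and 72.6 in the subcutaneous samples, and Aldoa, a glycolytic aldolase (ENSMUSG00000030695), at 271 and 267 CPM in the brain samples, 532, 409 and 458 in the liver samples and 1249, 1402 and 1058 in the subcutaneous samples. All 12 hypoxia genes were tested: 11 were lower in brain than subcutaneous members, 6 lower in brain than liver and 9 lower in liver than subcutaneous, with 0 higher in each contrast. Of all genes, 1.99%, 2.34% and 2.79% were lower in these contrasts. The list's median log2 fold changes were -1.55, -0.67 and -1.19. In the test of the members' difference from limit-matched cells, 1 of the 12, Slc2a1, which lies near Mycl, passed for brain against either site. Mt1 and Mt2, the metallothioneins, were also highest there: Mt2 stood at 393 and 320.4 CPM in the brain samples, 324, 235 and 302 in the liver samples and 1063, 922 and 1124 in the subcutaneous samples, with -1.75 ± 0.14 (SE), adjusted p = 2e-05 for liver against subcutaneous.

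Interferon-regulated genes were higher in brain members than in members of the other sites, in samples that also held host RNA. Of 14 genes in that list 9 passed the filter on low counts, and 7 were higher in brain than liver (Bst2, Irf7, B2m and H2-K1 among them), 6 higher than in subcutaneous and 0 lower, where 2.63% and 1.64% of all genes were higher. In the test of the members' difference from limit-matched cells, 0 of 14 were higher or lower for brain against either site. Of all genes, 0.949% were higher and 1.44% lower against liver, and 0.641% and 1.8% against subcutaneous. Compared with all other tumour cells of the same sample, Bst2 and H2-K1 were lower in members in all 8 samples. B2m, the light chain of class I molecules, stood at 221 and 107 CPM in the brain samples, 41.4, 47.3 and 46.9 in the liver samples and 61.1, 44.4 and 42.05 in the subcutaneous samples, and Ifi27, an interferon-induced mitochondrial protein that was not in the list, at 98.1 and 81.6 CPM in the brain samples, 22.9, 25.6 and 33.4 in the liver samples and 32.9, 16.5 and 21.4 in the subcutaneous samples. Brain sample 1, with the higher macrophage sum, was the higher of the 2 for B2m, Bst2 and Irf7. C1qa, a complement gene of microglia, stood at 119 and 7.44 CPM in the brain samples, 0.13, 0.57 and 0.14 in the liver samples and 5.17, 0.28 and 0 in the subcutaneous samples. Without members holding 3 or more macrophage UMIs, B2m still differed by 1.20 between brain and liver (edgeR adjusted p = 0.00083) and Ifi27 by 2.09 between brain and subcutaneous (adjusted p = 0.00033).

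Apoe and Mbp were among the most raised genes of brain members and are also abundant in glia. Apoe, a lipid carrier, stood at 185 and 112 CPM in the brain samples, 5.41, 6.26 and 5.92 in the liver samples and 11.1, 5.05 and 4.12 in the subcutaneous samples, and its fold change for brain against liver was 4.61 ± 0.33 (SE), adjusted p = 0.00013 (log2, edgeR). Without members holding 3 or more macrophage UMIs it was 4.15 (adjusted p = 0.0019). Mbp, the myelin basic protein gene, stood at 180.4 and 118 CPM in the brain samples, 49.1, 44.04 and 45.05 in the liver samples and 37.3, 37.6 and 38.4 in the subcutaneous samples, and was thus present in members at every site. Gfap, an astrocyte filament, was at 19.2 and 13.2 CPM in brain members and at 0 in the other 6 samples. These markers moved with the brain site, and their part in the Apoe and Mbp values was not tested further.

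**Figure D5:**
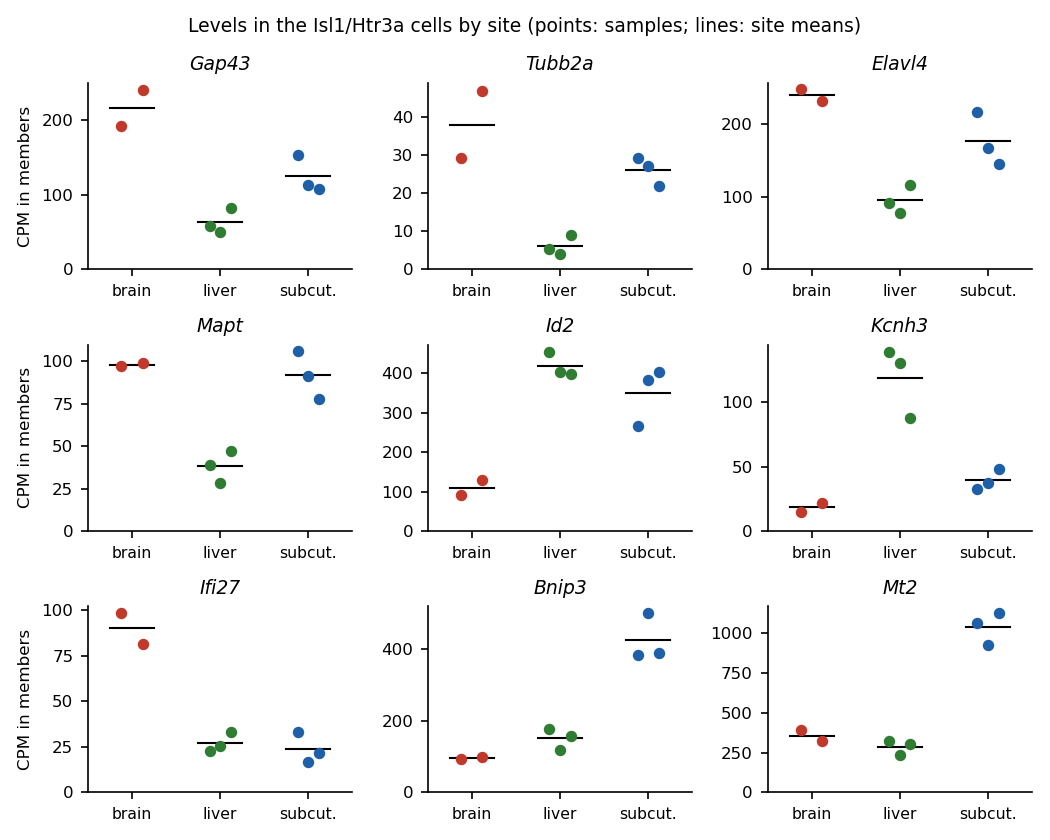
Level in Isl1/Htr3a cells (CPM, y axes, each from 0) by site (x axis) for 9 genes; points are samples and black lines site means. Gap43 is highest in brain, Tubb2a, Elavl4 and Mapt lowest in liver, Id2 lowest in brain, and Bnip3 and Mt2 highest in subcutaneous samples.

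Transcripts of the G2 and M phases of the cell cycle were found in Isl1/Htr3a cells at all 3 sites. With each cell thinned to 3000 UMIs, 38.0% and 35.2% of brain members held at least 4 UMIs over 20 genes of the G2 and M phases, as did 39.2%, 42.2% and 41.5% of liver members and 32.3%, 31.997% and 39.2% of subcutaneous members. Other tumour cells gave 34.6% and 34.3% in brain, 39.9% to 40.2% in liver and 33.1% to 36.3% in subcutaneous samples. The site means of members, 36.6%, 41.0% and 34.5%, did not differ beyond their spread (exact permutation F test, p = 0.1). Unthinned the shares were 50.3% to 67.0% and the exact permutation test gave p = 0.0036, and without subcutaneous sample 3 the thinned test gave p = 0.019. Counting thinned cells with at least 8 such UMIs, the site means were 27.1%, 25.07% and 24.6% (exact permutation p = 0.68). Thinning left out 14 of the 4460 members. Thinned alike, 72.2% to 92.8% of a sample's members held at least 4 UMIs over 18 S phase genes, and 69.5% to 88.0% of other tumour cells. This share was higher in members in each of the 8 samples. Against limit-matched cells 9 of the 18 were higher in members in all 8 samples and 0 lower, where 12.9% and 5.93% of all genes were. Against all other tumour cells 4 were higher and 0 lower, where 9.42% and 8.73% of all genes were. Of the 20 G2 and M genes, 6 were higher and 1 lower against limit-matched cells, and 0 higher and 2 lower against all others. Between sites in members with edgeR, 1 of 18 S phase genes, Pcna, was higher in brain than liver (2.63% of all genes). Lower in liver than subcutaneous was 1, Cdc6 (2.79% of all genes).

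Across the 16 sums (members and other tumour cells of 8 samples), the genes whose level ranked most like Isl1 were Htr3a (Spearman's rho 0.92), Cadps2 (0.89), Pmm1 (0.89), Cdkal1 (0.88), Sfmbt1 (0.88), Gnai2 (0.88), Dusp26 (0.88) and Gamt (0.88). Like Htr3a ranked Cadps2 (0.91), Cenps (0.90), Sfmbt1 (0.90), Dusp26 (0.89), Uhrf1 (0.86), Dzip3 (0.86), Thsd7a (0.86) and Mapk8ip1 (0.85). Isl1 and Htr3a chose the members, so the sums of members are high by construction, and the members and other cells of a sample share a library. The values are a description over these sums and carry no p.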

How the data were processed

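Tumours of the N2N1G line at 3 sites (8 samples) had been profiled by droplet 3' single-cell RNA sequencing. The authors deposited UMI counts per gene and cell for each sample, made with Cell Ranger and STAR on build mm10 per the submitters' processing notes. Per the file headers the matrix software was version 3.0.0. Barcodes had been filtered before deposit (lowest total 501 UMIs), doublets were not called or removed, and no deposited sample was left out. The members, gene lists and windows were chosen with earlier results of these data known.

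Counts were summed per sample over members and over other tumour cells and expressed as CPM. Ratios used log2 of CPM plus a pseudocount of 1. Site contrasts were fitted with edgeR 4.0.16 (R 4.3.3; TMM factors, filterByExpr, robust quasi-likelihood F test, Benjamini-Hochberg adjustment over all genes tested) on the 8 member sums. The site dependence of the difference from other tumour cells was fitted on 16 sums with sample as a block; both fits had 5 residual degrees of freedom. The 11 genes of the rule were left out of these tests. Shares were compared by exact permutation tests (scipy 1.17.1). On simulated counts for brain against liver, 71% of 2-fold and 85% of 4-fold changes were recovered among 11286 genes.

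Genes were named by size of change at fixed minimums: 15 in each direction against other tumour cells (50 CPM), 6 in each direction per site contrast whose samples did not overlap (20 CPM), 6 by p per interaction, 4 per list and 8 by likeness to Isl1 and Htr3a. Other genes in the text are members of lists or of the 2 stretches, or were picked after their values were seen. Alternatives were DESeq2 1.42.0, other size factors, no filter, stricter and thinned counts, a replicate block and leaving out each sample. Some genes are not reported here. Folds against classes with 0 UMIs are not printed. Gene positions came from GENCODE on GRCm38 and promoters from RefSeq.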

Additional observations from a re-analysis of the deposited data

Results flagged for a closer look

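For some genes the log2 ratio of Isl1/Htr3a cells to other tumour cells differed between sites by a test of that difference itself (edgeR quasi-likelihood interaction test, Benjamini-Hochberg adjusted p). Those with the smallest p at 20 CPM or more are given, and a negative value means a lower ratio in the first site. Between brain and liver the ratio differed for Rpl22l1 by -1.25 (adjusted p = 4.1e-16), Ybx1 by -1.28 (adjusted p = 1.6e-11), Foxj3 by -1.65 (adjusted p = 2.5e-11), Wdr83os by -0.91 (adjusted p = 3.2e-11) and Mycbp by -1.38 (adjusted p = 3.6e-11). Between brain and subcutaneous tumours it differed for Rpl22l1 by -1.17 (adjusted p = 3.2e-15), Slc2a1 by -1.44 (adjusted p = 1.8e-10), Use1 by -0.92 (adjusted p = 1.8e-10), Wdr83os by -0.85 (adjusted p = 1.8e-10), Foxj3 by -1.43 (adjusted p = 1.8e-10) and Dda1 by -1.05 (adjusted p = 1.8e-10). These contrasts share the brain samples, and the comparator cells of brain and of subcutaneous sample 1 held the most cells that the limits remove. Between liver and subcutaneous tumours it differed for Sox4 by -0.41 (adjusted p = 3.4e-05), Nnat by -0.43 (adjusted p = 0.00078), Chgb by -0.78 (adjusted p = 0.0037), Chga by -0.28 (adjusted p = 0.013), Ddah2 by -0.28 (adjusted p = 0.018) and Angptl6 by 0.65 (adjusted p = 0.018). Chgb and Chga encode granins, Sox4 an SRY-related factor, Nnat an imprinted neuroendocrine protein and Ddah2 an enzyme of methylarginine breakdown; all 5 had the lower ratio in liver.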

How the results depend on the processing

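The share of Isl1/Htr3a cells by site gave no call under the settings tried except with only tumour cells within the limits as denominator (subcutaneous minus liver 6.39 percentage points, exact permutation p = 0.014 over 3 sites, with site means of 24.05% (brain), 11.87% (liver) and 18.26% (subcutaneous)) and without subcutaneous sample 1, and leaving out single samples gave 1.87 to 7.49 points for subcutaneous minus liver. The G2 and M share, given as subcutaneous minus liver, was -6.48 points as reported, -12.2 unthinned (exact permutation p = 0.0036 over 3 sites), -0.48 at 8 or more UMIs (exact permutation p = 0.68) and -8.84 to -5.22 without single samples. Genes past 2-fold against other tumour cells numbered 66 (5 higher and 61 lower). They numbered 13 within the limits, where 12 were higher and 1 lower. They numbered 11 with a pseudocount of 5 CPM (0 higher), 28 at 10 CPM or more (2 higher), 114 with the rule applied to thinned cells (24 higher) and 46 to 84 without single samples. Lrpprc, lower against all other tumour cells, was at a log2 ratio of 0.043 within the limits. For brain against liver within members, the replicate block gave 969, members with at least 5 rule UMIs 283, thinned cells 263, and leaving out single samples 71 to 934. For brain against subcutaneous, no filter gave 681, at least 5 rule UMIs 263, thinned cells 251, the replicate block 575, and leaving out single samples 72 to 1074. For liver against subcutaneous, the replicate block gave 905, thinned cells 285, and leaving out single samples 164 to 847. For the site dependence of the difference from other tumour cells, brain against liver gave 698 with DESeq2, 836 at 5 rule UMIs, 703 thinned, 302 within the limits and 688 to 2271 without single samples. Brain against subcutaneous gave 618, 1019, 729, 309 and 617 to 2387 in the same order. Liver against subcutaneous gave 5 with DESeq2, 127 without a filter, 73 at 5 rule UMIs, 177 within the limits and 5 to 108 without single samples. The replicate block gave 1330, 1140 and 24 in these 3 comparisons. Same-numbered samples correlated at -0.13 to 0.21, so the replicate numbers were not taken as pairs. The within-limits comparison of sites and the thinned rule were added after seeing the data. Thinned and stricter settings use fewer UMIs or cells by construction; the cause of the other shifts was not tested. Of the named genes' values, 18 of 287 for the difference and 19 of 576 within members lost their call and 0 reversed.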
